A study of Mus musculus with 20 samples.

Results

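The homeostatic microglia genes described here are *P2ry12*, *P2ry13*, *Gpr34*, *Siglech*, *Fcrls*, *Tmem119*, *Slc2a5*, *Sall1* and *Crybb1*. They were taken by symbol from the single-cell count table, and 9 of 9 were found among its 16003 genes. For each gene the unique molecular identifiers (UMIs, counts of captured transcripts) were summed over the cells of a cluster in a library and divided by all UMIs of those cells, and the level is given as CPM, the count out of 1000000 UMIs. The choice of genes used no measured value.

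Microglia are the resident macrophages of the central nervous system. In the intact tissue they carry receptors, lectins and transporters that most other macrophages lack, and this program depends on local signals such as transforming growth factor beta and on the receptor for Csf1. The genes of this program are used to tell microglia from monocyte-derived macrophages (MDMs), which enter the cord from the blood after spinal cord injury (SCI), and microglia that respond to damage are known to lower many of them.

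The cells came from dissociated spinal cords of female C57BL/6J mice that were 8 to 10 weeks old. Mice ate vehicle chow or chow with PLX5622 (1200 ppm), an inhibitor of the Csf1 receptor that depletes microglia, from 2 weeks before surgery until the end point. They received a T9 contusion, with collection at 7 or 28 days post-injury (dpi), or a laminectomy alone (sham), for which the labels give 7 and 28 days together. There were 6 libraries, sham, 7 dpi and 28 dpi under each diet, and each pooled the unperfused cords of several mice, so that 1 library stands for a condition. No test was therefore made, and a difference between 2 libraries has no replicate check. The 95% intervals given beside values (Poisson and exact for a level in CPM, conditional binomial for a ratio, Clopper-Pearson for a share of cells) cover counting error only. Both injured times under a diet were set against the same sham library, so their differences from sham share it.

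The table held 21016 cells in 14 clusters, from 492 to 9846 cells per library with medians of 2268.5 to 5127 UMIs per cell. The cluster numbers carry no names in the files. They were named here from markers, and the microglia and MDM clusters each held the highest level of 5 of their 6 detected markers. The exceptions were *Sparc*, which was highest in pericytes, and *Arg1*, which was highest in the monocyte cluster. The monocyte cluster held the highest level of 4 of its 6 detected markers, and also of 5 of 5 markers of border macrophages. In order of sham, 7 dpi and 28 dpi, the vehicle libraries gave 674, 2154 and 3974 cells to the microglia cluster and 185, 3023 and 3313 to the MDM cluster. The PLX5622 libraries gave 29, 61 and 126 to the first and 9, 100 and 161 to the second. Of all barcodes, 44 occurred in more than 1 library, in 88 cells, which stayed in the sums. Because the clusters were built from the same cells and genes, a level in one cluster against another is a description.

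To show the DNA around the starts of these genes, the 250 bases before the RefSeq start of *P2ry12*, *P2ry13* and *Fcrls* are given, since the levels of *P2ry12* and *Fcrls* differed most in their pattern after injury and *P2ry13* lies next to *P2ry12*. The sequences are from RefSeq (GRCm38.p6), all are on the minus strand and read 5′ to 3′ in the gene's direction, and the capitals mark a PU box (GAGGAA, or TTCCTC on the other strand), the core that the macrophage factor PU.1 binds. The *P2ry12* window is chr3:59262986-59263235, the *P2ry13* window chr3:59210883-59211132 and the *Fcrls* window chr3:87263525-87263774. These starts are not all those of the gene annotation used for the coordinates further on. By that annotation most of the *Fcrls* window, with its PU box, lies inside the gene, and the *P2ry12* window lies farther upstream of the gene.
P2ry12: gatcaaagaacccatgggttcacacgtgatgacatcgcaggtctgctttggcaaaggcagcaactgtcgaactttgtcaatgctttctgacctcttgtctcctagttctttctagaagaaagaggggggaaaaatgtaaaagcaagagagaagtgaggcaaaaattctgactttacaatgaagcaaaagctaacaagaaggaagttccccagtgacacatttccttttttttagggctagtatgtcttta
P2ry13: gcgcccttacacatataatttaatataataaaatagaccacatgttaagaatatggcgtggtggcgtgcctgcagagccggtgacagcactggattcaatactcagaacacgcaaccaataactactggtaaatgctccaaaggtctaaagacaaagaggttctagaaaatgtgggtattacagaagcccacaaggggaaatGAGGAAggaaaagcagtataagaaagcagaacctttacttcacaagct
Fcrls: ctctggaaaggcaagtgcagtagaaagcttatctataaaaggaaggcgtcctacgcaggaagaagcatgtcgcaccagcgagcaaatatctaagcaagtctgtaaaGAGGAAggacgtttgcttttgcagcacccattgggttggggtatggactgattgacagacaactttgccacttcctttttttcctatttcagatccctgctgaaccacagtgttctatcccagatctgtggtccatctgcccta

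The table of promoters had an entry for 7 of the 9 genes, and *Tmem119* and *Gpr34* had none. A PU box was found in 2 of the 7, *P2ry13* (first base at -48 from the start) and *Fcrls* (first base at -144), and in 23.3% of all 32851 promoters. The same windows were searched on both strands for a MEF2 motif (CTA, 4 free bases, TAG), an AP-1 motif (TGANTCA) and an IRF motif (GAAA, 2 free bases, GAAA). These were in 0 of the 7 genes and in 3.2%, 6.75% and 2.98% of all promoters. No overlap between different motifs was removed. A match of letters is not a bound site.

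In the genome build of the counts (GRCm38) and the gene annotation used with it here, *P2ry12* lies at chr3:59216272-59262871 and *P2ry13* at chr3:59207892-59210882, both on the minus strand and both within *Med12l* on the plus strand. *Fcrls* (chr3:87250758-87263738, minus) is on the same chromosome. *Gpr34* (chrX:13632089-13640858, plus) overlaps *Cask* on the minus strand. The other genes overlap no annotated gene. They are *Siglech* (chr7:55768178-55778925, plus), *Tmem119* (chr5:113793729-113800516, minus), *Crybb1* (chr5:112255815-112269585, plus), *Slc2a5* (chr4:150119283-150144169, plus) and *Sall1* (chr8:89027235-89044162, minus).

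Over all libraries, 8 of the 9 genes had their highest level in the microglia cluster, and *Sall1* had it in ependymal cells. The microglia cluster held 82.3% of all *Slc2a5* UMIs, 79.0% of those of *Crybb1*, 75.9% of *P2ry12*, 72.9% of *Siglech*, 63.2% of *Tmem119*, 61.7% of *Gpr34* and 61.0% of *P2ry13*. It held 55.1% of the *Sall1* UMIs and 36.9% of the *Fcrls* UMIs. For *Fcrls*, the MDM cluster held more, 49.7%, and the level in microglia was only 1.22-fold above that of the next cluster, the intermediate progenitors. For *Crybb1* the next cluster was 6.64-fold lower, and for the other genes the distance between the first and second cluster lay between these values.

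**Figure D1:**
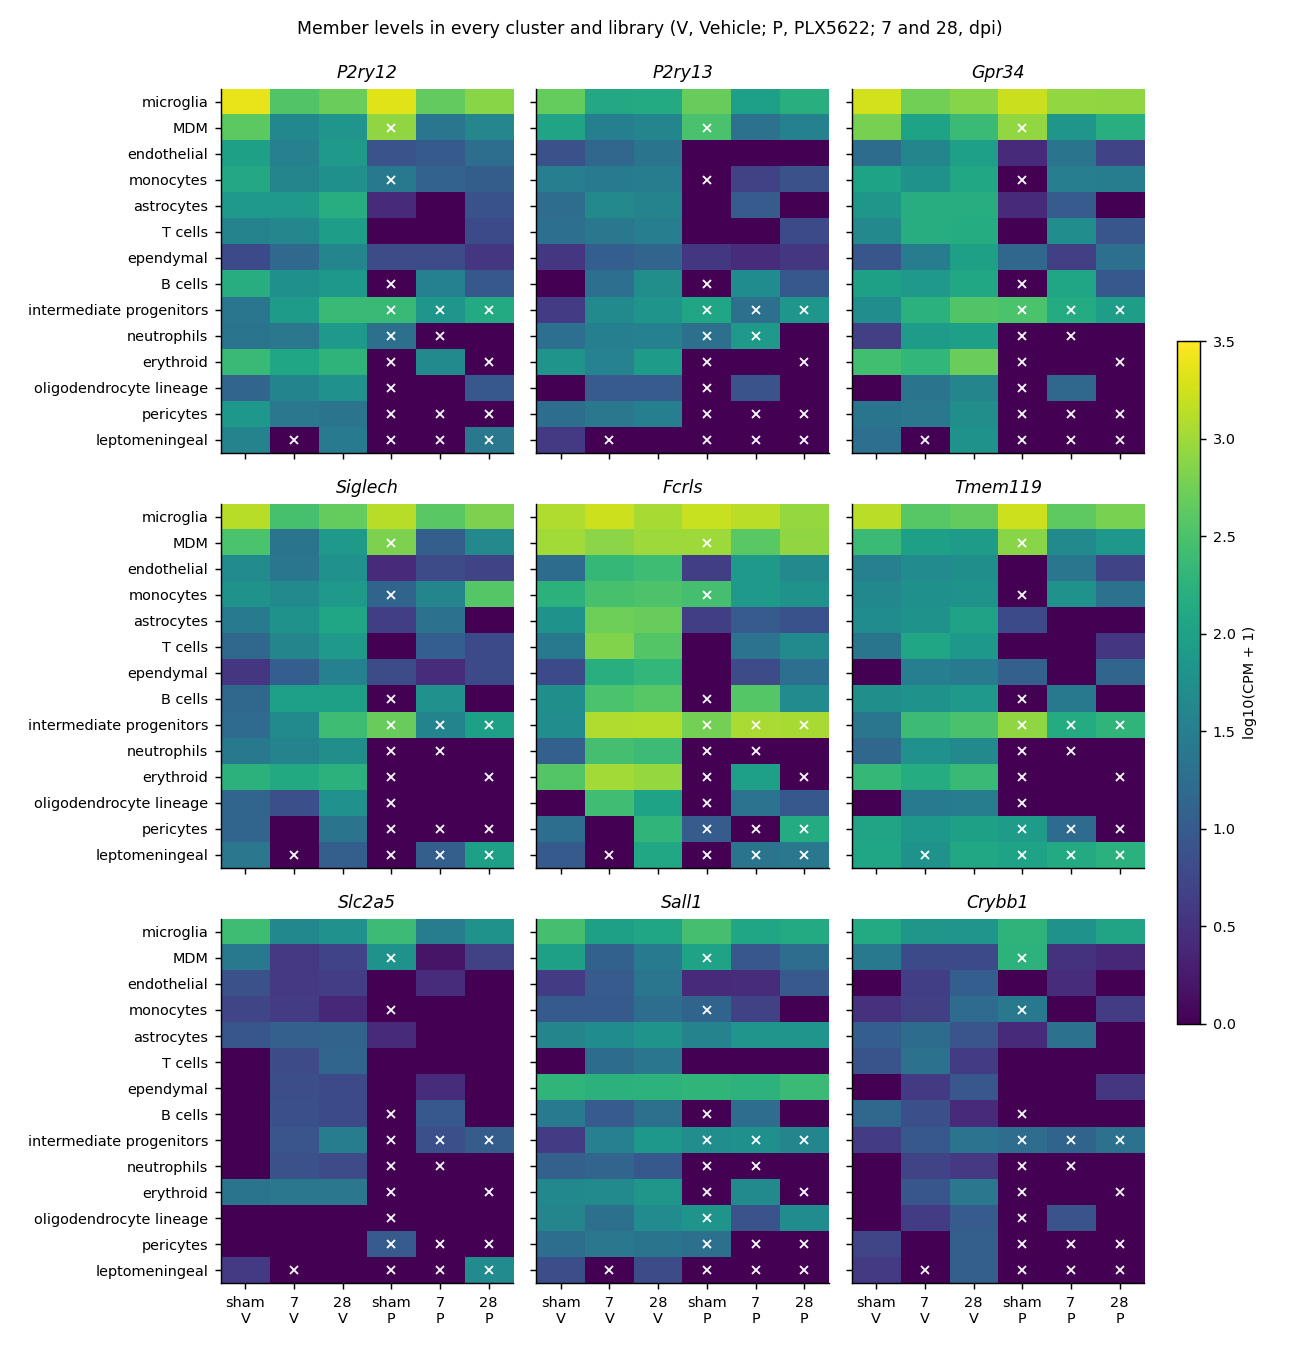
Level of each of the 9 genes (colour, log scale of CPM) in the 14 clusters (rows) and 6 libraries (columns, V for vehicle and P for PLX5622, with sham, 7 dpi and 28 dpi), where white crosses mark sums of under 20 cells. Pooled over libraries the microglia row is the highest for 8 genes and the ependymal row for *Sall1*, while in both sham libraries *Sall1* is higher in microglia, and at 28 dpi under vehicle *Fcrls* is higher in intermediate progenitors (1245 CPM) than in microglia (1109 CPM).

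*P2ry12* encodes the receptor for ADP through which microglial processes reach towards injury. Its level in the vehicle microglia cluster was 2410 CPM (2344 to 2477) at sham, 351 CPM (337 to 365) at 7 dpi and 509.7 CPM (494 to 526) at 28 dpi. Under PLX5622 it was 2111 CPM (1879 to 2364), 454 CPM (389 to 527) and 745 CPM (665 to 831). Under both diets sham was the highest, 7 dpi the lowest and 28 dpi between them, and no interval of 1 time overlapped that of another. *P2ry13*, a related ADP receptor, had levels of 468 CPM, 127 CPM (118 to 135) and 135 CPM (127 to 143) under vehicle. Under PLX5622 it had 480.1 CPM (373 to 609), 93.9 CPM (65.8 to 130.0) and 158 CPM (123 to 201). Both sham libraries were above all injured libraries, and the 7 and 28 dpi intervals of *P2ry13* overlapped under each diet, unlike those of *P2ry12*.

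*Gpr34* encodes a receptor for lysophosphatidylserine. It stood at 1838 CPM (1780 to 1897), 560.3 CPM (543 to 578) and 726 CPM (707 to 745) at sham, 7 dpi and 28 dpi under vehicle. Under PLX5622 it stood at 1680 CPM (1474 to 1908), 848 CPM (758 to 945) and 821 CPM (738 to 912). Sham was again the highest, and the 2 injured PLX5622 libraries did not differ beyond their intervals.

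*Siglech* encodes a sialic acid-binding lectin that signals through the adaptor Tyrobp and is also known from plasmacytoid dendritic cells. Its vehicle levels were 1316 CPM (1267 to 1366), 300.4 CPM (288 to 314) and 473 CPM (458 to 488). The PLX5622 levels were 1327 CPM (1144 to 1531), 402 CPM (341 to 470) and 652 CPM (577 to 732). The order of the times was the same as for *P2ry12* under both diets. *Tmem119*, a membrane protein used as a microglia marker, had 1385 CPM (1335 to 1436), 391 CPM (376 to 406) and 449.7 CPM (435 to 465) under vehicle. Under PLX5622 it had 1737 CPM (1527 to 1968), 428 CPM (365 to 498) and 626 CPM (553 to 705). Here too both sham libraries stood apart from all injured ones.

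*Fcrls*, an Fc receptor-like scavenger molecule of mouse microglia, went another way. Its vehicle levels were 1211 CPM (1164 to 1259) at sham, 1719 CPM (1688 to 1750) at 7 dpi and 1109 CPM (1086 to 1132) at 28 dpi. Its PLX5622 levels were 1589 CPM (1388 to 1810), 1375 CPM (1260 to 1497) and 896 CPM (808 to 989.9). It was the only 1 of the 9 genes whose vehicle level was higher at 7 dpi than at sham. Under PLX5622 the intervals of sham and 7 dpi overlapped. The 28 dpi library was the lowest under both diets in CPM, although with TMM factors its vehicle level was above sham.

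*Slc2a5* encodes the fructose transporter GLUT5. It had 259 CPM (238 to 282), 42.2 CPM (37.4 to 47.4) and 58.4 CPM (53.2 to 64.0) under vehicle. Under PLX5622 it had 247 CPM (172 to 344), 28.7 CPM (14.3 to 51.3) and 60.5 CPM (39.5 to 88.6), the middle value from only 11 UMIs. *Sall1*, a zinc-finger transcription factor needed for the microglial identity, had 292 CPM (269 to 316), 97.5 CPM (90.2 to 105) and 112 CPM (105 to 120) under vehicle. Its PLX5622 levels were 290 CPM (208 to 393), 112 CPM (81.2 to 151) and 137 CPM (104 to 177). *Crybb1*, a lens crystallin that microglia also express, had 137 CPM (122 to 154), 70.4 CPM (64.2 to 77.0) and 68.4 CPM (62.7 to 74.4) under vehicle. Its levels of 191 CPM (126 to 277), 60.0 CPM (38.0 to 90.0) and 109 CPM (80.4 to 145) under PLX5622 came from 27, 23 and 47 UMIs. Sham was the highest for all 3 genes under both diets, although for *Crybb1* under PLX5622 its interval overlapped that of 28 dpi.

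**Figure D2:**
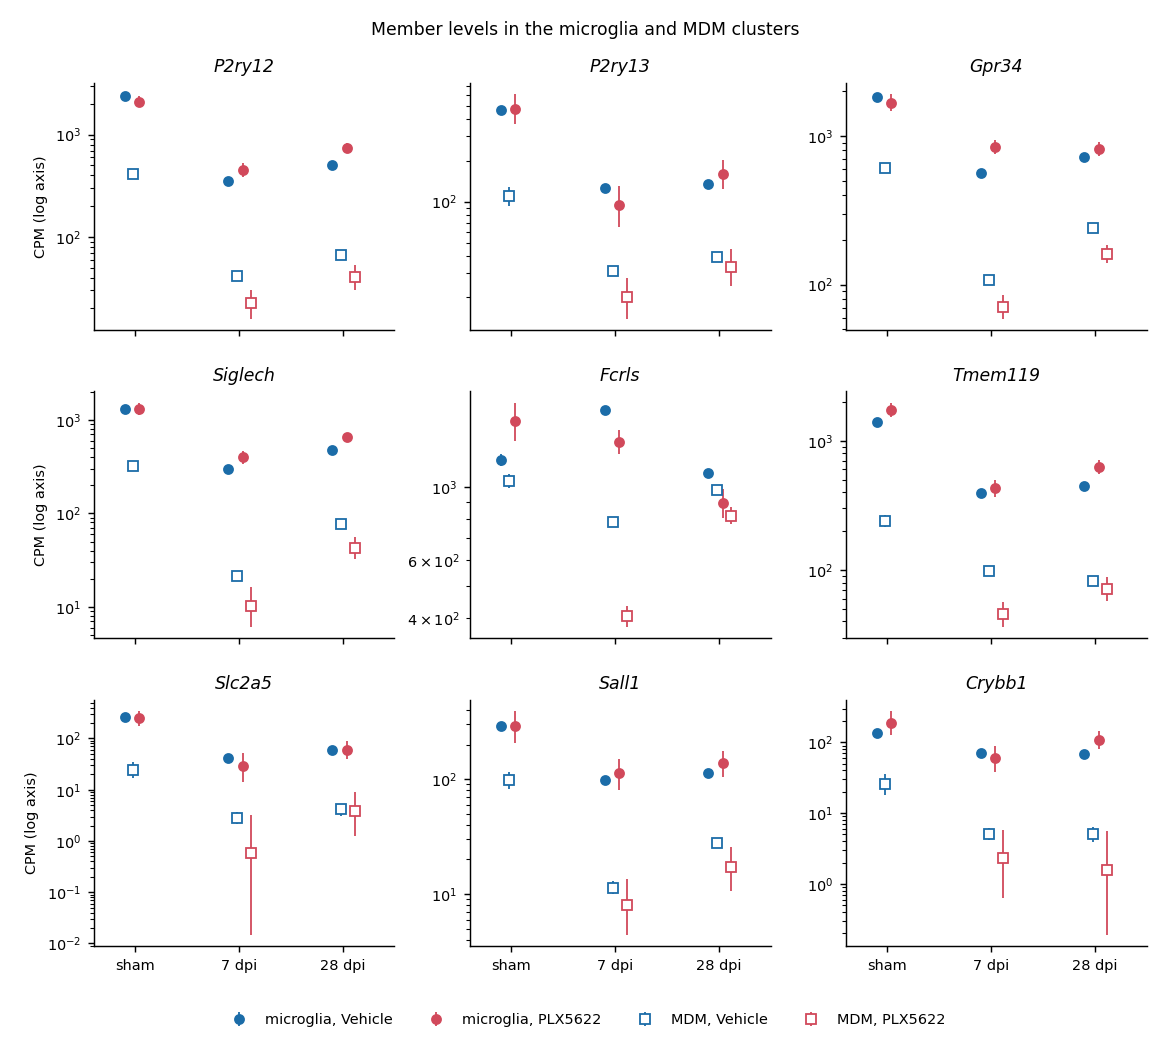
Level of each gene (CPM, log axis, 1 panel per gene) at sham, 7 dpi and 28 dpi in the microglia and MDM clusters under vehicle and PLX5622, with exact Poisson 95% intervals as bars and sums of under 20 cells left out. All genes but *Fcrls* stand highest at sham in microglia, and each gene is lower in MDMs than in microglia of the same library.

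Comparison of the vehicle libraries asked how the levels in the microglia cluster differed with injury. At 7 dpi against sham, 7 of the 9 genes were at least 2-fold lower in the microglia cluster, where 21.5% of all 6623 genes with at least 100 UMIs in both sums together were (at least 2-fold lower). The folds were 6.87 for *P2ry12*, 6.14 for *Slc2a5*, 4.38 for *Siglech*, 3.70 for *P2ry13*, 3.54 for *Tmem119*, 3.28 for *Gpr34* and 2.99 for *Sall1*. *Crybb1* was 1.95-fold lower, just short of that size, and *Fcrls* had a log2 ratio of 0.51 (0.44 to 0.57), from 0.26 with each cell weighted alike to 1.07 with TMM factors. The median log2 ratio of the 9 genes was -1.82, and that of all genes was -0.54. TMM factors, which centre the genes, moved the median of all genes by 0.56, and the median of the 9 genes was then -1.26. Under each of 7 other ways of scaling or selecting cells *Fcrls* was the highest of the 9 and the other 8 stayed below 0.

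At 28 dpi against sham, 8 of 9 genes were at least 2-fold lower, beside 12.5% of all 7162 genes. With TMM factors or DESeq2 size factors it was 5 of 9, without *Gpr34*, *Sall1* and *Crybb1*. The median log2 ratio was -1.48, and that of all genes -0.44. *P2ry12* (4.73-fold), *Slc2a5* (4.44-fold), *P2ry13* (3.47-fold) and *Tmem119* (3.08-fold) were lowest against sham. *Crybb1* was 2.01-fold lower and passed the size it had just missed at 7 dpi. *Fcrls* had a log2 ratio of -0.13 (-0.19 to -0.06) here, and 0.32 with TMM factors or DESeq2 size factors, so its direction at 28 dpi turned on the scaling.

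Between 28 and 7 dpi none of the 9 genes was at least 2-fold lower, as were 0.323% of all 7740 genes. *Siglech* (log2 ratio 0.66, 0.58 to 0.73), *P2ry12* (0.54, 0.47 to 0.61), *Slc2a5* (0.47, 0.25 to 0.69) and *Gpr34* (0.37, 0.31 to 0.43) stood higher at 28 dpi. *Tmem119* and *Sall1* had a log2 ratio of 0.20 each. The intervals of *P2ry13* and *Crybb1* held 0. *Fcrls* was lower at 28 dpi, with -0.63 (-0.67 to -0.59). None of the 4 genes that stood higher was back at its sham level, as the ratios to sham show.

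**Figure D3:**
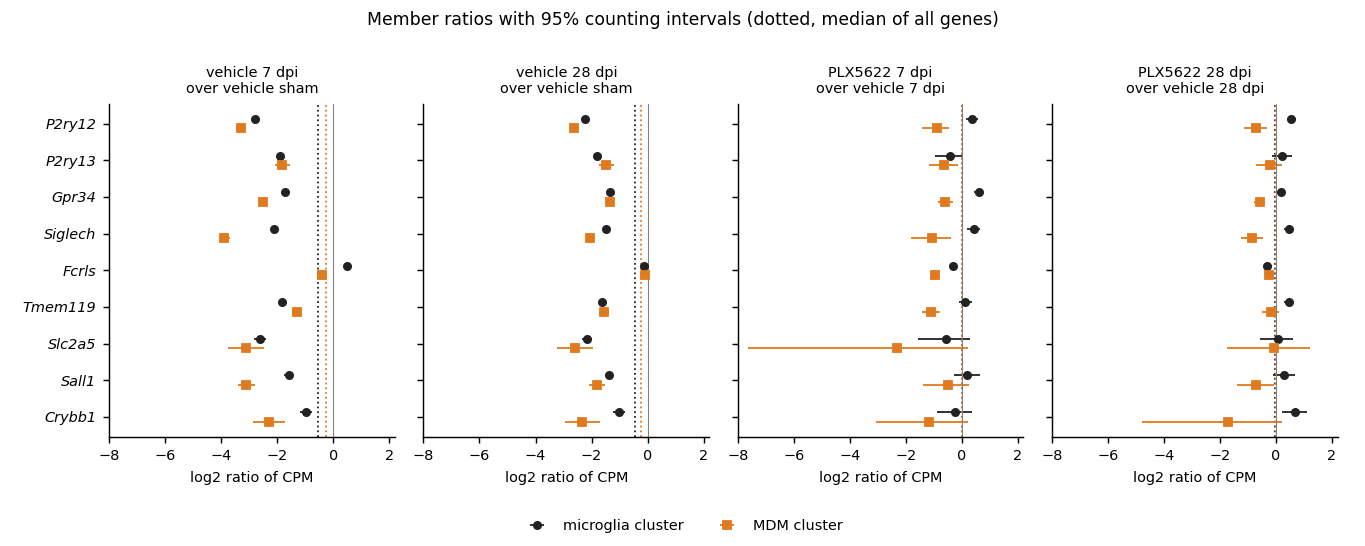
Log2 ratio of CPM between 2 libraries for each gene in the microglia and MDM clusters, 1 panel per comparison, with conditional binomial 95% intervals and dotted lines at the median of all genes. In the microglia cluster at 7 dpi against sham 8 genes lie left of 0 and *Fcrls* lies at 0.51, and the widest intervals, of *Slc2a5* and *Crybb1* in MDMs under PLX5622, rest on 1 and 2 UMIs in the PLX5622 sums.

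In the MDM cluster the 9 genes were lower than in microglia of the same vehicle library. In CPM they were also lower in the injured libraries than at sham. The sums held 185 cells at sham and 3023 and 3313 in the injured libraries. The paper reports that the main MDM subsets at baseline, among them one high in *Siglech*, gave way to others after injury. It also describes some MDMs as not clearly separable from microglia. The part of such a change of cells in these differences was not tested. *P2ry12* had 412 CPM (379 to 447) at sham, 41.8 CPM (39.0 to 44.7) at 7 dpi and 66.4 CPM (62.1 to 70.8) at 28 dpi. *Gpr34* had 612 CPM (572 to 654), 107 CPM (102 to 112) and 242 CPM (233 to 250), and *Sall1* had 98.0 CPM (82.4 to 116), 11.4 CPM (9.94 to 12.9) and 27.9 CPM (25.2 to 30.8). Sham was far above both injured libraries for these genes, and 28 dpi was above 7 dpi. *Tmem119* had 240 CPM (215 to 267), 97.4 CPM (93.2 to 102) and 81.8 CPM (77.1 to 86.7), so that 28 dpi was the lowest. *Slc2a5* had 24.7, 2.82 and 4.11 CPM and *Crybb1* had 25.4, 5.13 and 5.05 CPM. *P2ry13* had 109, 31.0 and 39.2 CPM.

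At 7 dpi against sham, 8 of the 9 genes had at least 100 UMIs in both MDM sums together, and 7 of the 8 were at least 2-fold lower, beside 11.0% of all 8303 genes. The median over the 9 was -2.52. At 28 dpi it was also 7 of 8, beside 5.63% of 7714 genes, with a median of -1.81 over the 9. *Slc2a5*, the gene short of 100 UMIs, had a log2 ratio of -3.13 and -2.59 at the 2 times. *Fcrls* was not 2-fold lower at either time, with 1046 CPM (994 to 1101), 783 CPM (770 to 795) and 978 CPM (962 to 995). Its log2 ratio at 28 dpi was -0.10, and 0.17 with TMM factors. The 185 cells of the sham library thus had these genes at levels between those of injured MDMs and of sham microglia.

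The weight of each gene among the 9 differed by cluster and time. *Fcrls* made up 13% (12.5 to 13.5%) of the UMIs of the 9 genes in sham vehicle microglia, and at the 2 later times 47.0% (46.4 to 47.6%) and 30.5% (29.9 to 31.0%). *P2ry12* made up 25.9% (25.2 to 26.5%), 9.58% (9.22 to 9.96%) and 14% (13.6 to 14.4%). In MDMs *Fcrls* made up 36.2% (34.8 to 37.7%), 71.1% (70.5 to 71.7%) and 64.3% (63.7 to 65.0%). UMIs of a 3′ method do not grow with transcript length. In UMIs *Fcrls* thus outweighed *P2ry12* in each injured library and in both clusters. In sham microglia it did not.

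Expressed as *Fcrls* UMIs per *P2ry12* UMI, a ratio that does not depend on the library total, the sham vehicle microglia had 0.503 (0.479 to 0.527), those of 7 dpi 4.90 (4.69 to 5.13) and those of 28 dpi 2.18 (2.10 to 2.26). PLX5622 microglia had 0.752 (0.630 to 0.898), 3.03 (2.55 to 3.62) and 1.20 (1.04 to 1.40). Within each diet 7 dpi was the highest and sham the lowest, and no interval overlapped. Vehicle MDMs had 2.54 (2.31 to 2.80), 18.7 (17.5 to 20.1) and 14.8 (13.8 to 15.8), and PLX5622 MDMs had 18.1 (13.1 to 25.7) at 7 dpi and 20.3 (15.3 to 27.3) at 28 dpi.

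**Figure D4:**
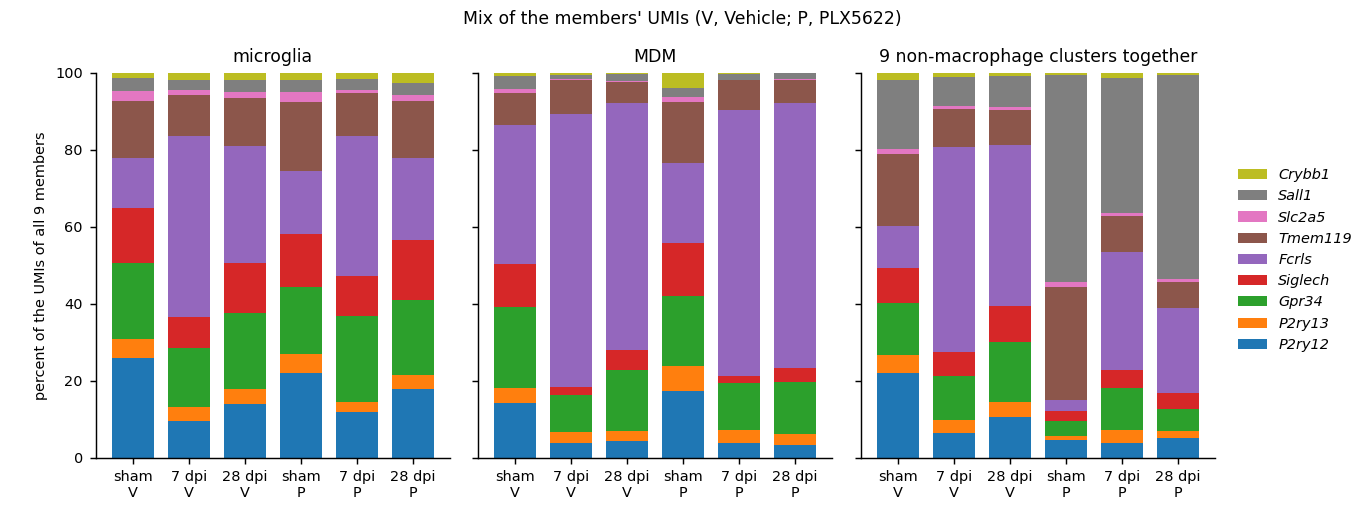
Share of each gene (percent, stacked bars) in the summed UMIs of the 9 genes, by library, for the microglia cluster, the MDM cluster and the 9 non-macrophage clusters together. *Fcrls* takes 13% in sham vehicle microglia and 47.0% at 7 dpi, 71.1% in MDMs at 7 dpi, and the bar of PLX5622 sham MDMs rests on 9 cells.

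These genes also gave UMIs in clusters that are not macrophages. In 9 such clusters (endothelial, astrocyte, T, B, ependymal, neutrophil, oligodendrocyte lineage, pericyte and leptomeningeal) the 9 genes together stood at 247 CPM in sham, 538 CPM in 7 dpi and 699 CPM in 28 dpi vehicle libraries. The PLX5622 libraries stood at 80.4, 182 and 137 CPM. *Sall1* in ependymal cells and *Tmem119* in leptomeningeal cells, described further on, are part of these sums. The other 7 genes stood at 156.5 CPM (142 to 172), 444 CPM (424 to 464) and 580.5 CPM (557 to 604.5) under vehicle and at 13.4 CPM (9.04 to 19.1), 101.2 CPM (87.0 to 117) and 55.2 CPM (44.2 to 68.2) under PLX5622. All 3 PLX5622 libraries, which held few microglia, were below all 3 vehicle libraries. In these clusters under vehicle, *Fcrls* gave 75 of the 432 UMIs of the 7 genes at sham. It gave 1197 of 1861 at 7 dpi and 1183 of 2344 at 28 dpi, while *P2ry12* gave 150, 146 and 300. The higher sum at 7 dpi than at sham was thus mostly *Fcrls*. The *Fcrls* to *P2ry12* ratio there was 0.500 (0.374 to 0.664), 8.20 (6.90 to 9.80) and 3.94 (3.47 to 4.49) under vehicle. In microglia and MDMs of the same libraries summed it was 0.714 (0.685 to 0.743), 8.50 (8.19 to 8.82) and 4.51 (4.37 to 4.65). The 2 series ran in the same order. Their intervals overlapped at 7 and at 28 dpi, and did not at sham. The erythroid cluster was not among the 9 clusters and stood higher under vehicle. There the 9 genes together had 1383, 1758 and 2170 CPM at sham, 7 dpi and 28 dpi, from 120, 58 and 35 cells. Under PLX5622 they had 0, 187 and 0 CPM, from 19, 25 and 5 cells. Pooled over libraries the erythroid cluster had the second-highest level of *P2ry12*, *Gpr34*, *Siglech* and *Slc2a5*.

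Some of the low levels in the 9 clusters came from very few cells. In sham vehicle endothelial cells 1 of 82 cells held 47 of the 70 UMIs of the 9 genes and 23 of the 30 *P2ry12* UMIs. Without it the *P2ry12* level there was 23.0 CPM in place of 97.0 CPM. In sham vehicle B cells 1 cell held 26 of 30 UMIs. In the 9 MDMs of the PLX5622 sham library, a cell of 20438 UMIs held 126 of the 307, and ratios of that sum are not given.

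Pooled over libraries, intermediate progenitors had the highest *Fcrls* level after microglia. Their vehicle levels of *Fcrls* were 51.1 CPM (29.2 to 83.0) at sham, 1195 CPM (1152 to 1240) at 7 dpi and 1245 CPM (1184 to 1310) at 28 dpi, so that the injured libraries were far above sham, and the 28 dpi level was above that of microglia in the same library (1109 CPM). *P2ry12* in the same cells was at 22.4, 84.7 and 228 CPM. The *Fcrls* to *P2ry12* ratio of 14.1 (12.2 to 16.3) at 7 dpi lay between those of microglia and MDMs of that library. The part that macrophage RNA or macrophages within this cluster had in these levels was not tested.

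To compare cells at 1 depth, each cell was thinned to 1000 UMIs and shallower cells were left out (126, 170 and 906 of the vehicle microglia, and 4, 7 and 13 of the PLX5622 microglia). The median number of UMIs of the 9 genes per cell was 9.5 at sham, 3 at 7 dpi and 3 at 28 dpi under vehicle. Under PLX5622 it was 8, 4 and 4. Cells with at least 5 such UMIs made up 91.1% (88.4 to 93.3%), 36% (33.9 to 38.1%) and 31.3% (29.7 to 33.0%) under vehicle, and 96.0% (79.6 to 99.9%), 46.3% (32.6 to 60.4%) and 43.4% (34.1 to 53.0%) under PLX5622. The whole distribution thus lay lower after injury. Every thinned sham microglia cell held at least 1 of these UMIs, and of the vehicle cells 4.74% (3.84 to 5.77%) held 0 at 7 dpi, and 8.08% (7.14 to 9.10%) did so at 28 dpi.

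MDMs had a median of 3, 1 and 1 under vehicle. Of them 9.71% (5.76 to 15.1%), 46.5% (44.7 to 48.3%) and 29.2% (27.6 to 30.8%) had 0, and 37.7%, 3.99% and 4.67% had at least 5. Under PLX5622 58.6% (48.2 to 68.4%) had 0 at 7 dpi and 45.3% (37.2 to 53.7%) at 28 dpi.

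**Figure D5:**
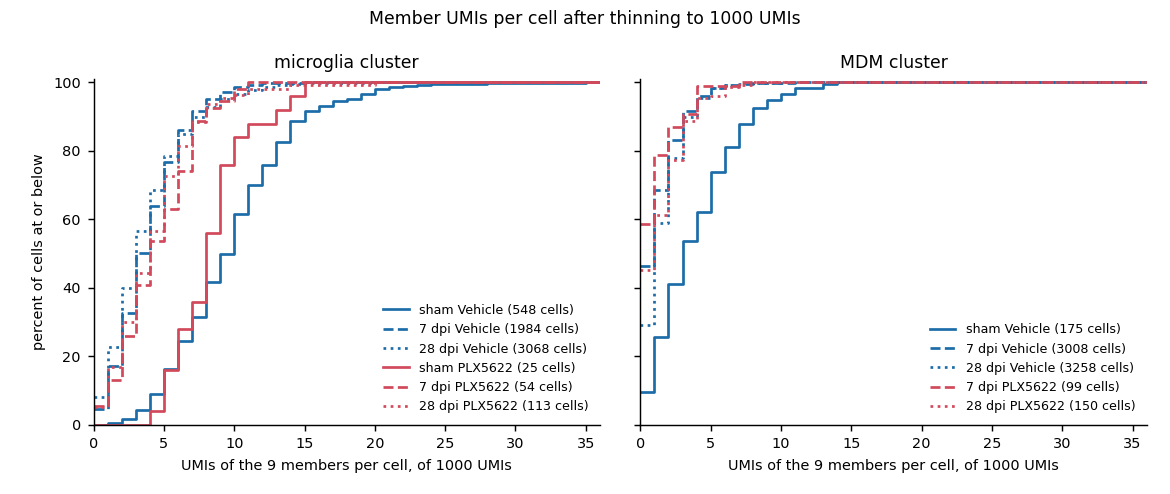
Cumulative share of cells (percent) by the number of UMIs of the 9 genes per cell after thinning to 1000 UMIs, for the microglia and MDM clusters and each library with at least 20 cells. The sham curves of microglia lie to the right (median 9.5 under vehicle), the injured ones at medians of 3 to 4, and the MDM curves to the left of microglia of the same library.

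The share of cells with a UMI was also read for single genes. After thinning, *P2ry12* had a UMI in 87.0%, 30.2% and 35.5% of vehicle microglia (91.2%, 55.2% and 51.6% before thinning, at median depths of 3178, 2902.5 and 1686 UMIs). In the 9 non-macrophage clusters it was 2.60%, 2.95% and 5.21% (median depths 2936.5, 1965 and 1344.5 UMIs). *Fcrls* had a UMI in 64.8%, 77.9% and 60.7% of vehicle microglia after thinning (87.2%, 93.2% and 75.3% before), and in 1.56%, 12.7% and 16.5% of the other cells. In PLX5622 microglia the thinned shares of *P2ry12* were 64.0%, 40.7% and 45.1%. All of these were far above the share in the other cells of the same library.

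Comparison of the diets asked how the levels differed with PLX5622 in the microglia that remained. In sham cords the 9 genes had a median log2 ratio of 0.01 (PLX5622 over vehicle) and none was at least 2-fold lower, where 7.75% of all 3304 genes were. *P2ry12* had -0.19 (-0.36 to -0.02), *Fcrls* 0.39 (0.19 to 0.59) and *Tmem119* 0.33 (0.13 to 0.52), and the intervals of the other 6 held 0. The levels in the 29 microglia of the PLX5622 sham library and the 674 of the vehicle library were thus near each other in the median. In the former a cell of 12279 UMIs held 165 of the 1367 UMIs of the 9 genes. It held 42 of the 188 UMIs of *Siglech*, the gene at the median. Under the other scalings and choices of cells the median lay between -0.09 and 0.11. *Slc2a5* ranged from -0.67 to 0.03, *P2ry12* from -0.37 to -0.09 and *Siglech* from -0.32 to 0.11. *Fcrls*, *Tmem119* and *Crybb1* stayed above 0.

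At 7 dpi none of the 9 was at least 2-fold lower under PLX5622, beside 4.88% of all 5616 genes, and the median was 0.13. *Gpr34* (0.60, 0.43 to 0.76), *Siglech* (0.42, 0.17 to 0.66) and *P2ry12* (0.37, 0.14 to 0.60) were higher under PLX5622 and *Fcrls* was lower (-0.32, -0.45 to -0.20). At 28 dpi again none was at least 2-fold lower, beside 5.87% of 6359 genes, and the median was 0.29. *Crybb1* (0.68, 0.22 to 1.11), *P2ry12* (0.55, 0.38 to 0.71), *Tmem119* (0.48, 0.29 to 0.66), *Siglech* (0.46, 0.28 to 0.64) and *Gpr34* (0.18, 0.02 to 0.33) were higher under PLX5622. Their size depended on the scaling and choice of cells. Over the 7 alternatives *P2ry12* ranged from 0.13 to 0.62, *Tmem119* from 0.10 to 0.55 and *Siglech* from 0.13 to 0.53. *Crybb1* ranged from 0.20 to 0.75, *Gpr34* from 0.07 to 0.29 and the median of the 9 from 0.07 to 0.36. *Fcrls* was lower, with -0.31 (-0.46 to -0.16), as it was at 7 dpi. These sums hold 61 and 126 cells under PLX5622.

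In MDMs the same contrast gave log2 ratios below 0 for all 9 genes at 7 and at 28 dpi in CPM. At 7 dpi, 8 of the 9 genes had at least 100 UMIs in both sums together, and 3 of the 8 (*Siglech*, *Tmem119* and *Crybb1*, the last on 4 UMIs under PLX5622) were at least 2-fold lower, beside 2.17% of all 8295 genes. *Slc2a5*, with 1 UMI under PLX5622, was the gene short of that minimum. The median over the 9 was -0.95, and the intervals of *Slc2a5*, *Sall1* and *Crybb1* held 0. *P2ry12* was at 22.3 CPM (15.9 to 30.5) under PLX5622 and 41.8 CPM under vehicle, *Tmem119* at 45.8 CPM (36.3 to 57.0) and 97.4 CPM, and *Fcrls* at 405 CPM (376 to 436) and 783 CPM. *Siglech* rested on 18 UMIs under PLX5622 (10.3 CPM, 6.11 to 16.3), and its log2 ratio of -1.06 became 0.37 when each cell was weighted alike, as those of *Slc2a5* and *Sall1* became 0.51 and 0.06. At 28 dpi 7 genes had at least 100 UMIs, without *Slc2a5* and *Crybb1*, and 0 of the 7 were at least 2-fold lower, beside 2.48% of 7635 genes. The median over the 9 was -0.59, and the intervals of *P2ry13*, *Tmem119*, *Slc2a5* and *Crybb1* held 0. Without the top 5% of UMIs *P2ry13*, *Tmem119* and *Slc2a5* had 0.04, 0.12 and 0.24. *P2ry12* was at 40.4 CPM (30.2 to 53.0) under PLX5622 and *Fcrls* at 819 CPM (770.3 to 870.0). Microglia are rarer in the PLX5622 libraries, and the 7 genes other than *Sall1* and *Tmem119* were lower there in the 9 non-macrophage clusters too (13.4 to 101.2 CPM against 156.5 to 580.5 CPM). Their part in the lower MDM levels was not tested.

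Other genes of the microglial program were read from a list of 20 genes, of which 19 were in the table. At 7 dpi against sham in vehicle microglia, 19 of 19 had a log2 ratio below 0, 8 were at least 2-fold lower (21.5% of all genes) and the median was -0.95 (-0.54 over all genes). *Selplg*, the ligand of P-selectin, had -1.70 and *Lgmn*, a lysosomal protease, -1.49. *Ltc4s*, which makes leukotriene C4, had -0.12 and *Sparc*, a matrix protein, -0.32. At 28 dpi 19 of 19 were below 0, 10 were at least 2-fold lower (12.5% of all genes) and the median was -1.04 (-0.44 over all genes), with *Lgmn* (-1.41) and *Slco2b1* (-1.26) lowest and *Bhlhe41* (-0.25) and *Ltc4s* (-0.38) highest. The median of the 9 genes was lower than that of the wider list at both times, with -1.82 and -1.48. These counts and medians are in CPM. TMM factors raise every microglia log2 ratio to sham at 1 time by the same amount, 0.56 at 7 dpi. That would put *Ltc4s* and *Sparc* above 0 and leave only *Selplg* at least 2-fold lower at 7 dpi. At 28 dpi TMM factors would put *Bhlhe41* and *Ltc4s* above 0 and leave none of the 19 at least 2-fold lower.

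Of 8 further genes of purine signalling, 5 had at least 100 UMIs in both microglia sums. At 7 dpi 2 of the 5 were at least 2-fold lower, beside 21.5% of all genes. These were *Adora3*, an adenosine receptor (-2.06), and *Entpd1*, the ectoenzyme CD39 that degrades ATP and ADP (-1.49). With TMM factors *Entpd1* would fall short of that size. *P2rx4*, an ATP-gated channel, had 0.08 and *P2ry6*, a UDP receptor, -0.44. At 28 dpi the values were -1.76 for *Adora3*, -1.24 for *Entpd1*, 0.10 for *P2rx4* and -0.67 for *P2rx7*, another ATP-gated channel.

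Relatives and neighbours of the 9 genes differed among themselves. Of the 20 that the table holds, 10 had at least 100 UMIs at 7 dpi and sham together. *Siglece*, another lectin of the *Siglech* family, had a log2 ratio of -1.72, and *Med12l*, the gene around *P2ry12* and *P2ry13*, had -1.55, from 24.3 CPM at sham to 8.30 CPM. *Slc2a6*, a glucose transporter of the *Slc2a5* family, had 1.84 and *Tyrobp*, the adaptor of Siglech, 1.34, from 2556 CPM to 6454 CPM. The receptor gene and its adaptor thus went opposite ways in these libraries. At 28 dpi *Siglece* had -2.08, *Sall3*, a relative of *Sall1*, -1.14, *Tyrobp* 1.18 and *Slc2a6* 1.37.

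Genes known to be raised in responding microglia were read beside them from a list of 10. All 10 were at least 2-fold higher at 7 dpi than at sham in vehicle microglia (median 3.26), where 266 of all 6623 genes were, and all 10 at 28 dpi (median 3.58), where 259 of 7162 were. *Spp1*, which encodes osteopontin, had a log2 ratio of 6.73 and *Lgals3*, a galectin, 5.81 at 7 dpi, and *Cd63* (1.35) and *Itgax* (1.42) were the lowest. Under PLX5622 at 28 dpi all 10 were below vehicle, 6 of them at least 2-fold, beside 5.87% of all 6359 genes, with a median of -1.06. Of the 9 homeostatic genes 8 were above vehicle there in CPM, where the median log2 ratio of all genes was -0.04. The intervals of *P2ry13*, *Slc2a5* and *Sall1* held 0, and each of these fell below 0 under some other scaling or choice of cells.

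The 2 programs were also compared between cells of 1 library. Vehicle microglia were split by their number of homeostatic UMIs after thinning. *Fcrls* gave 47.0% of these UMIs at 7 dpi and 30.5% at 28 dpi before thinning, and no split without it was made. At 28 dpi the 248 cells with 0 had higher levels of 10 of the 10 activation genes than the 961 cells with at least 5, for example 4291 CPM (4133 to 4454) against 2026 CPM (1964 to 2090) for *Spp1* and 370 CPM (324 to 420) against 143 CPM (126 to 160) for *Lgals3*. At 7 dpi it was 8 of 10 genes, with 94 and 714 cells, and *Spp1* had 4241 CPM (4028 to 4463) against 2689 CPM (2620 to 2759). *Cd63* and *Cst7* were the 2 that were not higher, with 1748 against 1911 CPM for *Cd63*. Of the 8, *Itgax* (43.0 CPM, 24.1 to 70.9, against 42.7 CPM, 34.4 to 52.4) and *Lpl* had overlapping intervals. The cells with 1 to 4 such UMIs had the highest *Lpl*, *Cst7* and *Cd63* levels at 7 dpi. The share of all genes higher in the cells with 0 was not counted. The cells with 0 were also deeper, with a median of 2392.5 against 1610 UMIs at 28 dpi and 3423.5 against 2705.5 UMIs at 7 dpi, and the part of depth or of cells of other types was not tested.

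*Sall1* was not confined to microglia. Ependymal cells had 195 CPM (154 to 244), 179 CPM (149 to 214) and 182 CPM (153 to 215) at sham, 7 dpi and 28 dpi under vehicle. Under PLX5622 they had 194 CPM (152 to 245), 184 CPM (151 to 224) and 240 CPM (194 to 294). These 6 intervals overlapped each other, and the level did not follow that of microglia across libraries. Under vehicle the *Sall1* level of microglia was above the ependymal one at sham and below it at 7 and 28 dpi, with no overlap of the intervals. Astrocytes had 38.5 CPM, 49.0 CPM and 62.8 CPM under vehicle and 35.8 CPM, 66.7 CPM and 66.0 CPM under PLX5622, from 7 to 30 UMIs each.

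*Tmem119* gave UMIs in stromal clusters too. Leptomeningeal cells had 118 CPM (84.5 to 161) at sham under vehicle, 125 CPM (80.1 to 186) at 28 dpi under vehicle and 106 CPM (74.4 to 146) at sham under PLX5622, the last from 14 cells. Pericytes had 108 CPM (70.0 to 160) at sham and 95.6 CPM (43.7 to 182) at 28 dpi under vehicle. All 5 intervals overlapped. At sham under vehicle 1 of the 41 pericytes held 32 of the 63 UMIs of the 9 genes and 14 of the 17 *P2ry12* UMIs. Of the 27 leptomeningeal cells there, 1 held 39 of the 74 UMIs. The *Tmem119* levels without these cells were not read.

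Outside the microglia and MDM clusters, the highest *Siglech* level of a sum with at least 20 cells was that of the monocyte cluster in the 28 dpi PLX5622 library, with 372 CPM (308 to 446). The other 5 libraries had 12.5 to 76.8 CPM in that cluster. Of its 63 cells there, 11 held at least 3 *Siglech* UMIs each and together 108 of the 116, and *P2ry12* and *Fcrls* were at 0 in them. The 11 cells had 930 CPM of *Ccr9* against 7.60 CPM in the other cells of the cluster, 1612 against 7.60 CPM of *Cox6a2*, 1261 against 0 CPM of *Ly6d* and 2852 against 213 CPM of *Bst2*. *Cx3cr1*, the fractalkine receptor of microglia, was at 20.7 CPM in them and 414 CPM in the others. These cells and genes were chosen after their values were seen, and the cells were given no name. They are not a group of the study. Cells with at least 3 *Siglech* UMIs in other libraries differed in these genes. The 8 such cells of the B cell cluster at 7 dpi under vehicle had 1348 CPM of *Siglech* and 661 CPM of *Ccr9*. They had 740.1 CPM of *Cox6a2* and 2273 CPM of *Bst2*, beside 159 CPM of *Fcrls*. The 9 of the monocyte cluster there had 1560 CPM of *Siglech* and 572 CPM of *Cox6a2*, but also 676 CPM of *Fcrls* and 182 CPM of *P2ry12*. The 5 of the monocyte cluster at sham under vehicle had 0 CPM of *Ccr9*, *Cox6a2* and *Ly6d*, with 1175 CPM of *P2ry12* and 881 CPM of *Fcrls*. The 2 of that cluster at 7 dpi under PLX5622 also had 0 CPM of *Ccr9*, *Cox6a2* and *Ly6d*.

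Over 75 sums of a cluster in a library with at least 50000 UMIs, 8 of the 9 genes followed the mean of the other 8 with a Pearson r of 0.82 to 0.95, on log2(CPM + 10), and *Sall1* with 0.53. The sums share libraries and clusters, so r is a description. Among 11685 other genes, those most like the mean of the 9 included *Lrrc3* (r = 0.93), *Gpr84*, *Hpgds*, *Csf1r*, *Adora3*, *Cx3cr1*, *Cd86*, *Ntpcr* and *Lgmn* (r = 0.90). *Csf1r*, *Cx3cr1* and *Lgmn* are also in the wider homeostatic list and *Adora3* in the purine list.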

How the data were processed

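Single-cell RNA-seq of 6 pools of mouse spinal cord was used. The bulk samples of the study were not analysed here. Per the labels and the study's methods, the authors aligned reads to GRCm38 (mm10) and counted UMIs with Cell Ranger (3.0.2 in the matrix headers), and used Seurat to filter and cluster cells. The deposited files hold counts (UMIs per gene and cell, with no normalization), and the deposited table gives a cluster number per cell. It holds 716 cells with more than 3000 genes and 0 mitochondrial genes, and 254 of 21270 barcodes in the library matrices, all with under 200 genes, are left out of it. Libraries held 2606149 to 35694246 UMIs. The 9 genes had the same UMIs in both kinds of file in 6 of 6 libraries.

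Counts were summed by cluster and library and given as CPM. A log2 ratio compares 2 sums. A gene counted as lower at a 2-fold difference, where both sums together held 100 UMIs or more. The genes, the lists of other genes and the comparisons were chosen with earlier results of these data known. Named genes were the 9, the 2 highest and 2 lowest of each list per comparison, and the 10 most alike, of which not all are reported here. Others were named after their values were seen (*Cst7*, *P2ry6* and the genes of the *Siglech* cells), and the sum of 7 genes without *Sall1* and *Tmem119* was added after seeing the data. Doublets were left in. Alternatives were TMM factors (edgeR 4.0.16), DESeq2 1.42.0 size factors, each cell weighted alike, that with cells of at least 1000 UMIs, totals without ribosomal protein genes, cells with at least 500 genes, and cells without the top 5% of UMIs. Scripts were tested on simulated counts, in R 4.3.3 and Python 3.11.15 with pandas 2.3.3, scipy 1.17.1 and numpy 2.4.6.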

Additional observations from a re-analysis of the deposited data

Results flagged for a closer look

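Several log2 ratios had opposite signs in the microglia and MDM clusters under the same contrast, with intervals on opposite sides of 0. With 1 library per condition none of these differences was tested. *Fcrls* at 7 dpi against sham had 0.51 in microglia and -0.42 in MDMs, and at 28 against 7 dpi -0.63 and 0.32. *Tmem119* at 28 against 7 dpi had 0.20 in microglia and -0.25 in MDMs. For PLX5622 over vehicle at 7 dpi, *P2ry12* had 0.37 in microglia and -0.90 in MDMs, *Gpr34* 0.60 and -0.59, and *Siglech* 0.42 and -1.06. At 28 dpi *P2ry12* had 0.55 in microglia and -0.72 in MDMs, *Gpr34* 0.18 and -0.59, and *Siglech* 0.46 and -0.85.

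In microglia, 2 genes had opposite signs between sham and 28 dpi for PLX5622 over vehicle. *P2ry12* had -0.19 at sham and 0.55 at 28 dpi, and *Fcrls* 0.39 and -0.31. These differences were not tested either.

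Outside the count table, the 121 barcodes of the sham vehicle library that it leaves out held 11 UMIs of the 9 genes, 152 CPM (75.9 to 272) of 72315 UMIs, above the limit that a count of 0 allows. In the kept cells of that library the 9 genes had 3451 CPM.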

How the results depend on the processing

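With 1 library per condition the alternatives show only how scaling and the choice of cells move a value. No paired analysis was possible because each condition has 1 library. The median log2 ratio of the 9 genes kept its direction in microglia at 7 and 28 dpi against sham and in MDMs at both times under 7 of 7 alternatives. In microglia at 7 dpi against sham it was -1.26 with TMM factors and with DESeq2 size factors and -1.65 without ribosomal protein genes. At 28 dpi it was -1.03 with TMM factors, -1.03 with DESeq2 size factors, -1.25 with each cell weighted alike and -1.35 without ribosomal protein genes. At 28 dpi 5 of 9 genes, in place of 8, were at least 2-fold lower with TMM factors or DESeq2 size factors, and 7 or 8 under the other 5 alternatives. Between 28 and 7 dpi the median was 0.46 with each cell weighted alike. In MDMs at 7 dpi against sham it was -2.25 with TMM factors, -2.23 with DESeq2 size factors, -3.02 with each cell weighted alike, -3.10 with that and at least 1000 UMIs, and -2.65 without the top 5% of UMIs. At 28 dpi it was -2.14, -2.20 and -2.13 with the last 3. *Fcrls* turned direction at 28 dpi against sham, to 0.32 in microglia with TMM factors (0.32 with DESeq2 size factors) and to 0.17 (0.16) in MDMs, as the shift of all genes (0.45 in microglia, 0.26 in MDMs) exceeded its ratio. *Siglech* in MDMs at 7 dpi, PLX5622 over vehicle, turned to 0.37 with each cell weighted alike and 0.38 with at least 1000 UMIs as well, and the cause was not tested. In sham microglia, PLX5622 over vehicle, the median lay between -0.09 and 0.11, and at 28 dpi between 0.07 and 0.36. With a minimum of 20 in place of 100 UMIs, 0.926% of all genes were at least 2-fold lower in microglia at 28 against 7 dpi (0.323% above). In MDMs at 28 dpi against sham it was 9.45% (5.63% above). In MDMs for PLX5622 over vehicle it was 4.50% at 7 dpi (2.17% above) and 5.20% at 28 dpi (2.48% above). Depth limited *Slc2a5*, *Sall1* and *Crybb1* in the PLX5622 libraries, where their microglia and MDM sums rested on 1 to 59 UMIs.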
